A study of Mus musculus with 24 samples.

Results

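The left side of the embryonic mouse head was compared with the right side, over all 24 arrays of the series. The members were the 12 arrays labelled left and the 12 labelled right, paired by the embryo number in their titles. All were (C3H/HeH x 101/H)F1 embryos, 4 at each of the stages E8.5, E10.5 and E12.5, where the number gives days post coitum, with no treatment or targeted allele named for either side. Per the methods the heads were taken off the body and divided along the midline, so that each sample is 1 side of a head with skull mesenchyme, eye, skin and blood, although the labels call it brain. Embryos entered the study only where qRT-PCR gave even Wnt1 and Shh on the 2 sides, so evenness of midline genes is in part a matter of selection. In such samples fewer cells of a type and less RNA per cell cannot be told apart.

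The body of the mouse embryo acquires its left-right difference at the node, a pit at the midline whose beating cilia drive a leftward flow of fluid. The flow ends in expression of Nodal, a ligand of the TGF-beta family, on the left of the trunk, and its antagonists Lefty1 and Lefty2 hold the signal to that side. In the adult brain the hemispheres differ in function, and in the zebrafish the dorsal diencephalon is built unevenly under Nodal. Whether the sides of the mouse head differ at the level of RNA before the cortex forms is the question the comparison addresses.

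The values were Illumina bead array intensities for 46643 probes, each with the background already subtracted. The mean intensity of an array was 149.1 to 240.5 on the left (median 199) and 154.1 to 323.2 on the right (median 218), and 37.6% to 45.2% of probes were at or below 0 on an array. Signals below are intensities after quantile normalization, and differences are left minus right of log2(signal + 119.5), so that positive means higher on the left. Such a difference understates the fold in signal of a dim gene. The number of arrays limits the precision. Genes of young neurons were present (Dcx, up to 6722), and so were those of skin (Krt14, up to 2543), blood (Hba-a1, up to 34310) and, in some embryos, heart muscle (Myl4, up to 3190).

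The arrays of the right side fell into separate groups by replicate number. The first principal component took up 46.5% of the variance and the second 27.4%. On the latter the 6 right sides of replicates 1 and 2 lay at 20.4 to 31.9 and the 6 right sides of replicates 3 and 4 at -47.2 to -28.4. The left sides lay close together between them, at 2.2 to 13 for replicates 1 and 2 and at -1.2 to 5.8 for replicates 3 and 4. The labels give no meaning to the replicate number, and they do not tie arrays to BeadChips. Replicates 1 and 2 were therefore also analysed apart from replicates 3 and 4, 6 embryos each and 2 from every stage, and are called sets. What lies behind the sets was not tested. The series lists its samples in blocks of 6, each holding 1 side of 1 set. A further deposited table names 4 BeadChips of 6 arrays. Whether the blocks are BeadChips could not be tested. If they are, side within a set and BeadChip cannot be told apart.

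**Figure D1:**
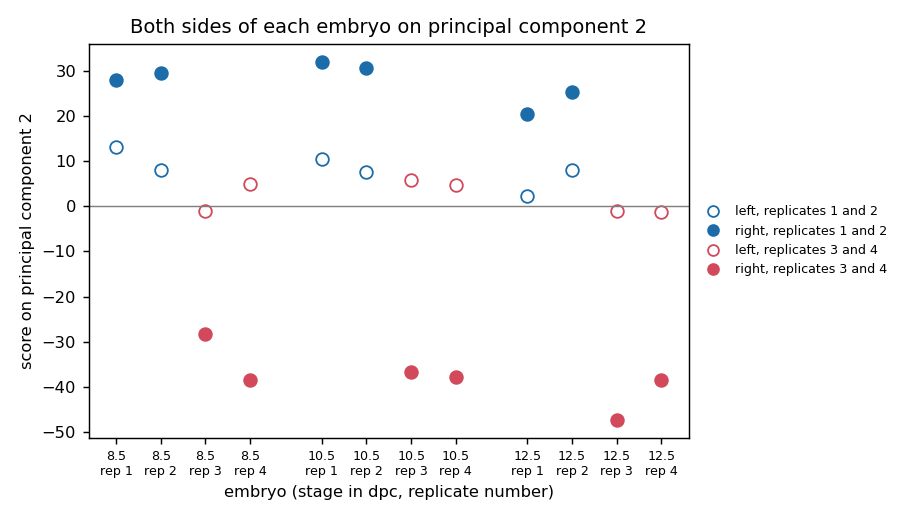
Position of each of the 24 arrays on the second principal component of the log2 signals (vertical axis), by embryo (horizontal axis), with an open point for the left and a filled one for the right side, coloured by set. Right sides of replicates 1 and 2 sit at 20.4 to 31.9 and right sides of replicates 3 and 4 at -47.2 to -28.4, while all left sides sit between -1.2 and 13.

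Xist did not go against the pairing of the sides in the titles. Xist, the RNA of the inactive X chromosome in females, was 27 or more on both sides in 6 embryos and 10.3 to 24.8 on both sides in the other 6. No embryo mixed these classes, but the classes were drawn from these same values, and the lowest of the first, 27, was close to the highest of the second. The Y-linked genes Eif2s3y and Kdm5d, at mean signals of -0.025 and -6.09, were too near background to check the pairing. Within the 6 high embryos the level followed the sets. In the 3 of replicates 1 and 2 the right side was the higher, at 421 against 324, 181 against 113 and 188 against 125. In the 3 of replicates 3 and 4 it was the lower, at 30.9 against 117, 27 against 91.9 and 34.5 against 104.

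Across all 3 stages the mean difference between the sides was mostly small, and no probe passed the test. That mean joined opposite differences in the sets. Of 2905 probes called at an adjusted p below 0.05 in each set, 2873 lay on opposite sides (6.16% of all probes). With embryo as a block, limma called 0 of 46643 probes at an adjusted p below 0.05 (0% of probes), the smallest adjusted p being 0.078. At an unadjusted p under 0.05 there were 4141 probes (8.88%), 1973 higher on the left (4.23%) and 2168 on the right (4.65%). The threshold of the study, a log odds B above 1, was passed by 47 probes (0.101%), of which 37 were higher on the left (0.0793%) and 10 on the right (0.0214%). Scaling each array to its median, in place of quantile normalization, turned that split to 1 left and 14 right. Without E12.5 replicate 3 the count was 28, without E10.5 replicate 3 it was 29 and without E12.5 replicate 2 it was 31. Differences of the 47 probes were 0.09 to 0.43 in size, and 29 of the 47 were called at an adjusted p below 0.05 on the same side in both sets, against 32 of all probes (0.0686%). The 47 were chosen on the same embryos that make up the sets, so that this count is a description only. In the fit that let the sets differ, 2661 probes (5.71%) had a called mean difference, 1604 on the left (3.44%) and 1057 on the right (2.27%). The p of that fit rests on the spread of embryos within a set. Here and below it does not test whether a difference holds over sets.

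The gene with the smallest p on the left was Pa2g4, whose product is a growth regulator that binds the receptor ErbB3. Its signal was 3081 at the lowest, 4474 at the median and 5678 at the highest on the left, and 2491, 3709 and 5124 on the right. The ranges overlapped, but the left side was the higher in 12 of 12 embryos. The difference was 0.24 ± 0.03 (SE, 95% interval 0.18 to 0.31, n = 12 embryos, adjusted p = 0.078 by limma). It was 0.25 at E8.5, 0.25 at E10.5 and 0.23 at E12.5, and 0.18 in replicates 1 and 2 against 0.30 in replicates 3 and 4. An exact sign-flip test over the 12 embryos (two-sided) gave p = 0.000488, the smallest that 12 embryos allow, not adjusted for the number of probes.

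Ptma, which encodes prothymosin alpha, an acidic protein of the nucleus, had the smallest p on the right. Its signal ran from 171 through a median of 314 to 487 on the left and from 206 through 461 to 658 on the right. The right side was the higher in 12 of 12 embryos, with left minus right from -0.03 in E8.5 replicate 4 to -0.77 in E10.5 replicate 1. The mean was -0.42 ± 0.06 (SE, interval -0.55 to -0.29, adjusted p = 0.078), with -0.49 in replicates 1 and 2 and -0.35 in replicates 3 and 4. Without E8.5 replicate 4 Ptma and a probe with no symbol passed the test, at -0.46 and 0.20, each with adjusted p = 0.0449.

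Other genes of smallest p on the left had similar differences. Ccdc25 had signals of 407, 669 and 886 (lowest, median, highest) on the left and 378, 547 and 727 on the right, a difference of 0.20 (interval 0.13 to 0.26) in 12 of 12 embryos. Qrich1, a regulator of transcription in the unfolded protein response, was at 1208, 1425 and 1679 on the left and 959, 1188 and 1648 on the right, a difference of 0.23 in 12 of 12 embryos. For both, the ranges of the sides overlapped, while the left was the higher within every embryo. Mars1, the methionyl-tRNA synthetase of the cytoplasm, stood at 786, 1273 and 1888 on the left and 712, 1057 and 1743 on the right, 0.21 higher on the left in 12 of 12 embryos. Rapgef1, an exchange factor for the small GTPase Rap1, differed by 0.16, with 2949, 3652 and 4387 on the left and 2740, 3220 and 3997 on the right. The histone H2A gene H2ac12, among the brightest probes of the array, differed by 0.17 (15188, 19357 and 24519 against 13065, 17450 and 19462). Its second probe gave 0.20, with an adjusted p of 0.347 by limma. The other probes in this paragraph had adjusted p-values of 0.078 to 0.0854.

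Several genes of smallest p rested on 1 probe, with another probe of the gene showing less or the reverse. Tomm6, a small subunit of the translocase of the outer mitochondrial membrane, was 0.29 higher on the left (interval 0.19 to 0.38, 11 of 12 embryos), at 769, 992 and 1227 against 569, 736 and 1078. Other probes of Tomm6, at mean signals of 190 and 142, gave 0.04 and -0.01. Sf3a1, a component of the U2 snRNP of the spliceosome, differed by 0.11 (interval 0.08 to 0.15, 12 of 12 embryos) on a probe with a signal of only 112, and by 0.10 with an adjusted p of 0.601 on the brighter probe of 1672, which turned to -0.03 under median scaling. Rps6, a protein of the small ribosomal subunit, was higher on the right by 0.25 on its dim probe, at 53.6, 122 and 191 on the left and 62.7, 167 and 272 on the right (difference -0.25, interval -0.34 to -0.16). The bright probe of Rps6, at 4344, 7282 and 9806 on the left and 4571, 6788 and 8152 on the right, gave 0.12 in the other direction (adjusted p = 0.636), and -0.01 under median scaling. Which probe reads the gene's RNA better was not tested.

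On the right, the remaining genes had mean signals of 23.5 to 645. Tuba1a, the alpha-tubulin of young neurons, had signals of 30.7, 126 and 524 on the left and 34.3, 202 and 620 on the right, a difference of -0.25 (adjusted p = 0.0879), and was higher on the left in 1 of 12 embryos. H3f3a, a gene of the replication-independent histone H3.3, had 89.5, 169 and 237 against 140, 233 and 446, a difference of -0.36 (adjusted p = 0.108). The sides overlapped widely for both. Fbxo3, an F-box protein of a ubiquitin ligase, differed by -0.19 and Cryzl1 by -0.13, each lower on the left in 12 of 12 embryos. Ndufaf4, an assembly factor of respiratory complex I, differed by -0.28 on 1 probe and by 0.08 on another, and Dynlt1b, a light chain of dynein, by -0.09 at a signal of 23.5. Of these 16 genes, 8 per side, 14 had an adjusted p below 0.05 on the same side in each set, where the share of all probes was 0.0686%, and 11 lay on 1 side in all 12 embryos. Both counts come from the embryos on which the genes were chosen and are a description only. All 16 were called once side by set was in the fit, with adjusted p-values of 4.14e-05 (Pa2g4) to 0.00903 (Dynlt1b). That p leaves out the spread between sets. Under median scaling all 16 kept their sign. The left ones ran from 0.01 (Rapgef1) and 0.04 (H2ac12) to 0.19 (Tomm6), with Pa2g4 at 0.10. The right ones ran from -0.08 (Dynlt1b) to -0.48 (Ptma). The median over probes above a signal of 100 moved from 0 to -0.06. Ptma, Rps6, Tuba1a, H3f3a and the H2A genes have close copies in the genome, and probe sequences were not used here, so that a probe of theirs may read more than 1 gene.

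**Figure D2:**
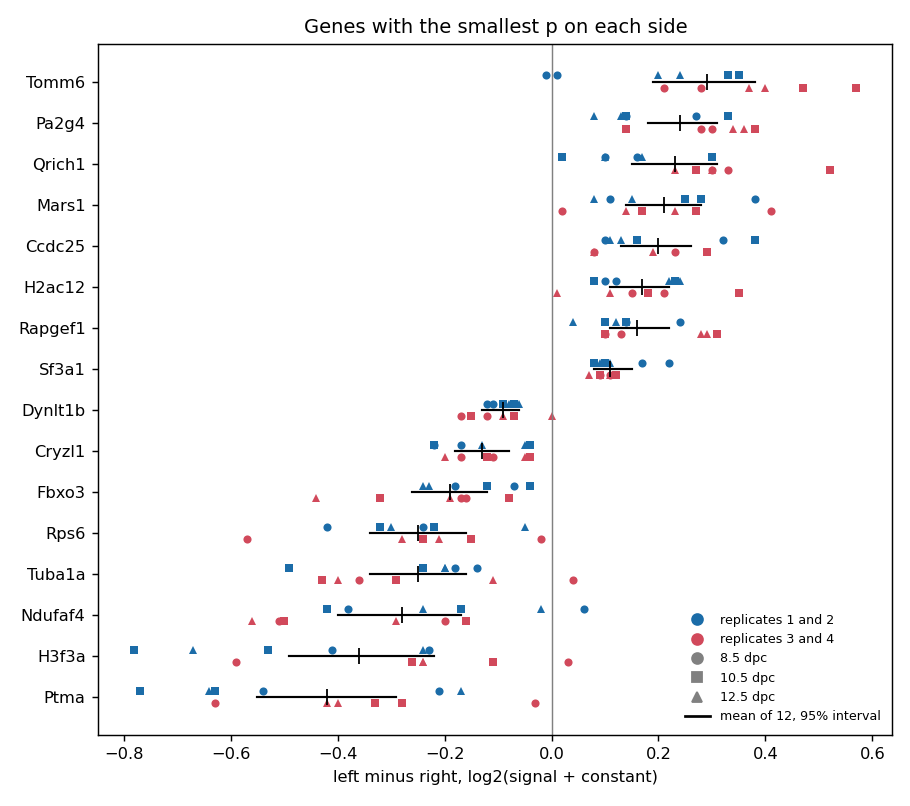
Left minus right on the log2 scale (horizontal axis) of the 16 genes with the smallest p (rows, 8 per side), with 1 point per embryo, coloured by set and shaped by stage, and the mean with its 95% interval. Pa2g4 lies at 0.24 and Ptma at -0.42, and the points of both sets fall on the same side of 0.

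For the mean over the 12 embryos, the intervals were rather narrow. They take the embryos as independent, although left minus right was shared within a set (median r of 0.70 between embryos over probes, and -0.59 across sets). The intervals and folds below may therefore understate the uncertainty. Among the 8148 probes with a mean signal over 100, the half-width of the 95% interval of left minus right was 0.14 at the median, with quartiles of 0.10 and 0.19, which with the constant taken off is a 1.14-fold difference in signal at the median. A difference that would pass a Bonferroni correction over all probes was 0.53 at the median precision, or 1.62-fold in signal with the constant off. The half-width hardly moved with signal (0.14, 0.15, 0.14 and 0.13 at the median in 4 rising ranges of signal), while the fold in signal that it stands for fell. The fold that would pass Bonferroni was 1.75 for the 3358 probes at signals of 100 to 300, 1.60 for the 2742 at 300 to 1000, 1.47 for the 1363 at 1000 to 3000 and 1.41 for the 685 above 3000. Within a single stage, with 4 embryos, the median half-width was 0.26.

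No probe above a signal of 100 had a difference of over 1 on the log2(signal + 119.5) scale. As folds in signal, dim probes could differ more, such as Ogt, an enzyme that adds GlcNAc to proteins, with median signals of 135 on the left and 52.7 on the right (difference 0.43, adjusted p = 0.121). The largest difference, 0.83 ± 0.30 (SE), belonged to a probe with no gene symbol and a signal of 5599, and did not pass the test (adjusted p = 0.478). It was -0.28 in replicates 1 and 2 and 1.95 in replicates 3 and 4. The median size of the difference over the 5917 genes with a probe above that signal was 0.08. The interval lay wholly between -0.32 and 0.32, here called even, for 6117 probes (75.1%) and for 4539 genes (76.7%) on their brightest probe. This margin corresponds to 1.55-fold in signal at a signal of 100, 1.35-fold at 300, 1.28-fold at 1000 and 1.26-fold at 3000. Under median scaling the share of even probes was 51.1%. With margins of log2 of 1.1, 1.5 and 2 on the same scale 16.6%, 93.2% and 99% of probes were even. An even mean was not always even in each set: 3031 probes (37.2%) and 2272 genes (38.4%) were even in both.

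**Figure D3:**
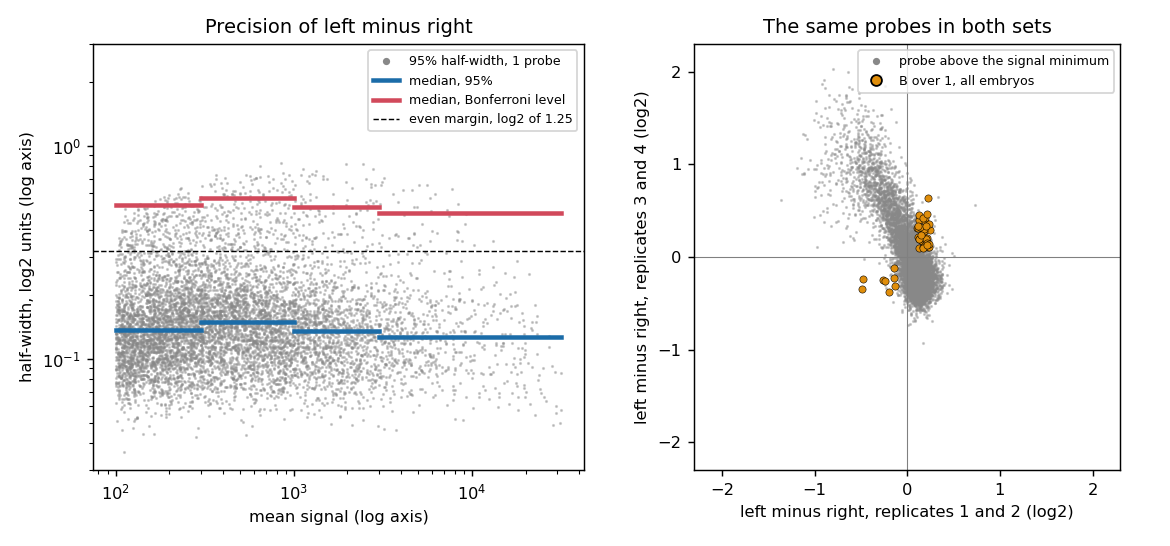
Half-width of the 95% interval of left minus right (log2) against mean signal (both axes log) for the 8148 probes above a signal of 100, with the medians of 4 signal ranges at the 95% (blue) and Bonferroni (red) levels and the even margin of 0.32 dashed, and the mean log2 difference of replicates 3 and 4 against that of replicates 1 and 2 for the same probes, with those of B above 1 in orange. The median half-width is 0.14, and the points of the second panel fall along a line of negative slope (r = -0.80 across probes).

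Most of the genes measured with the smallest standard error were near 0 under quantile normalization. Eef1g, a subunit of the translation elongation factor, had signals of 25783, 28590 and 31769 on the left and 25508, 28361 and 31769 on the right, a difference of 0.00 (interval -0.05 to 0.05). Nxn, a redox protein of the thioredoxin family, had 2214, 2931 and 3792 against 2122, 2959 and 3942, a difference of 0.02. For both genes the sides covered nearly the same range. Arf2, a small GTPase of membrane traffic, differed by 0.01 (interval -0.04 to 0.05) and Tcf25 by 0.04. Aamp, of equal precision, was 0.11 higher on the left (interval 0.06 to 0.15) in 12 of 12 embryos, with signals of 3216, 3596 and 4824 against 3145, 3343 and 4396 and an adjusted p of 0.177. Gapdh differed by 0.04 (interval -0.04 to 0.12). Ngdn, the last of the 6 genes of smallest standard error, gave 0.06 (interval 0.01 to 0.11). Median scaling moved the median over probes above a signal of 100 to -0.06. Under it Eef1g went to -0.09, Nxn and Arf2 to -0.12, Tcf25 to -0.08, Ngdn to -0.09, Aamp to -0.05 and Gapdh to -0.07. With side by set in the fit Aamp was called (adjusted p = 0.0102).

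The genes that set the sides of the trunk gave small differences where their signal was above 100. Of 11 genes of this pathway on the array 4 had a signal above 100 and all 4 were even, 3 of them in both sets. With 76.7% of all genes even, 4 of 4 is near the background. Gdf1, a ligand that acts with Nodal, had signals of 150, 368 and 581 on the left and 153, 346 and 575 on the right, a difference of -0.03 (interval -0.08 to 0.03). The activin receptor Acvr2b had 4020, 5148 and 7130 against 4461, 5427 and 7908, a difference of -0.06 (interval -0.16 to 0.04). Smad2, which carries the signal into the nucleus, had 161, 260 and 310 against 179, 266 and 338, a difference of -0.09 (interval -0.17 to -0.02), and was higher on the left in 2 of 12 embryos (adjusted p = 0.488). For these genes the ranges of the sides overlapped over most of their length. Bicc1, an RNA-binding protein needed for flow at the node, differed by -0.11 (interval -0.26 to 0.03), with 0.07 in replicates 1 and 2 and -0.29 in replicates 3 and 4, and Acvr2b likewise with 0.08 and -0.20. For Acvr2b the test of the difference between sets gave an adjusted p of 0.000568, and for Bicc1 0.0059. Under median scaling Gdf1 went to -0.08, Acvr2b to -0.20, Smad2 to -0.14 and Bicc1 to -0.17, and the median of the 4 from -0.08 to -0.15. None of the 4 was called with side by set in the fit, Smad2 having the smallest adjusted p, 0.142.

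Nodal and its antagonists were dim. The signals of the remaining 7 genes were -17.4 to 40.1. Nodal was the brightest of them, at 35.7, 42.8 and 51 on the left and 23.3, 38.2 and 52.5 on the right, with a difference of 0.05 (interval 0.00 to 0.10), higher on the left in 10 of 12 embryos (adjusted p = 0.563). A second Nodal probe, at a signal of 11.9, gave -0.02. Lefty1, Lefty2 and Dand5, all antagonists, gave 0.01, -0.02 and -0.04, the co-receptors Cfc1 and Tdgf1 0.01 and -0.01, and the transcription factor Foxh1 0.02. At such signals the constant outweighs the signal, so that these differences understate any fold. Of 12 genes of cilia at the node 3 were above a signal of 100, and only Mns1, a protein of the ciliary axoneme, was even (-0.03). Kif3a, a kinesin of ciliary transport, gave 0.17 and Invs 0.27, but with -0.26 and 0.59, and -0.15 and 0.68, in the 2 sets. Both means were called with side by set in the fit (adjusted p = 0.0112 and 0.0228). That p leaves out the spread between sets, which here had opposite signs.

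Midline genes had wide intervals. Of 14 on the array 6 were above a signal of 100, 4 of these were even and none was even in both sets, and their median difference was -0.13 against -0.01 over all genes. Shh, the ligand of notochord and floor plate, had signals of 159, 438 and 1268 on the left and 166, 435 and 1011 on the right, and a difference of -0.16 with an interval of -0.51 to 0.18. The medians were alike, but single embryos were not, from 0.87 in E10.5 replicate 2 to -0.84 and -1.47 in E12.5 replicates 2 and 3. Foxa1, a transcription factor of the floor plate, moved with Shh in those embryos, at 0.55, -0.59 and -1.42, and its mean was -0.20 (interval -0.49 to 0.09). The roof plate genes Wnt3a, Msx1 and Msx2 gave -0.11, -0.15 and -0.11, and the floor plate ligand Ntn1 gave 0.12. Wnt1, the other gene used to choose the embryos, had a mean signal of 59.3 and a difference of 0.02 (interval -0.11 to 0.14).

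A small group was known from the human fetal cortex, where the hemispheres have been reported to differ. Its 5 genes are no independent evidence here, since 4 of them were also picked by the study on these arrays. Lmo4, a transcriptional cofactor of the cortex, had signals of 3319, 4106 and 5201 on the left and 2956, 4289 and 6722 on the right, a difference of -0.06 (interval -0.24 to 0.13, adjusted p = 0.87). That mean joined -0.30 in replicates 1 and 2 with 0.19 in replicates 3 and 4, and the sets differed (adjusted p = 0.00202). Btf3, a subunit of the nascent polypeptide-associated complex, was at 9090, 10592 and 12934 on the left and 7520, 8879 and 10013 on the right, 0.26 higher on the left (interval 0.17 to 0.36, 11 of 12 embryos, adjusted p = 0.106), although its probe at a signal of 208 gave -0.03. Sf3b2, of the U2 snRNP, was at 4009, 4408 and 4917 against 3013, 3910 and 4503, higher by 0.21 (interval 0.13 to 0.30) in 12 of 12 embryos, with an adjusted p of 0.108. The median left side of Btf3 lay above its highest right side, the ranges of Sf3b2 overlapped more, and neither gene passed the test over all embryos. With side by set in the fit, where p leaves out the spread between sets, both were called (adjusted p = 0.00124 and 0.000165). Lmo4 was not (0.666). Under median scaling Btf3 fell to 0.14 and Sf3b2 to 0.06, and Lmo4 went to -0.21. Arpc4, of the actin-nucleating Arp2/3 complex, gave -0.04 on its brightest probe (872), and 0.13 on a probe with a signal of -15.7.

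**Figure D4:**
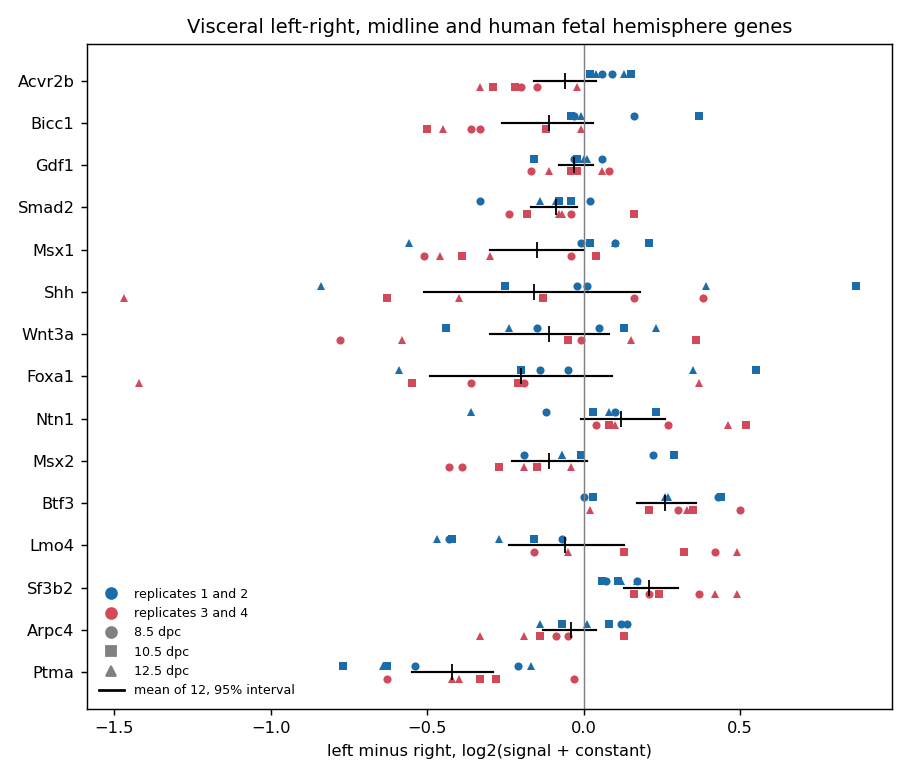
Left minus right on the log2 scale (horizontal axis) for the genes of the trunk left-right pathway, the midline and the human fetal list above a signal of 100 (rows), with 1 point per embryo, coloured by set and shaped by stage, and the mean with its 95% interval. Gdf1 and Acvr2b lie near 0 with short intervals, and Shh spreads from -1.47 to 0.87.

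By gene class, the test could not tell the 37 lists apart, since no probe passed it in the fit over all embryos. Of the 35 lists with a member above a signal of 100, 9 had a share of even genes at or above that of all genes (76.7% of 5917) and 26 a lower one. All 5 genes of cartilage and connective tissue above a signal of 100 were even, Sox9, the transcription factor of cartilage, giving 0.04 at 2453, 3542 and 4898 on the left and 2481, 3515 and 4957 on the right (-0.11 under median scaling). So were 4 of 4 immediate early genes, among them Klf6 at -0.02, which are induced when tissue is handled. Of neuronal genes 10 of 12 were even with a median difference of -0.02. Dcx, a microtubule protein of migrating neurons, gave -0.03 (interval -0.09 to 0.03), and Stmn2 -0.06. Of glycolytic genes 13 of 16 were even, of histone genes 33 of 42, of splicing factors 25 of 35, of oxidative phosphorylation genes 38 of 53 and of mitochondrial ribosomal proteins 44 of 62. Fewer were even among genes of DNA replication and the cell cycle (15 of 26), the proteasome (13 of 23) and the cytoskeleton (8 of 15). So it was for cholesterol synthesis (4 of 8), cranial mesenchyme and neural crest (4 of 7) and imprinted genes (4 of 9). All these counts are for the mean over embryos. Even in both sets were 2 of 5 cartilage and connective tissue genes, 1 of 4 immediate early genes and 4 of 12 neuronal genes. The same counts were 9 of 16 for glycolysis, 18 of 42 for histones and 12 of 35 for splicing factors. They were 19 of 53 for oxidative phosphorylation and 16 of 62 for mitochondrial ribosomal proteins, against 38.4% of all genes. Twist2, a transcription factor of mesenchyme, gave -0.25 (interval -0.43 to -0.06, adjusted p = 0.461), at 14.1, 298 and 918 on the left and 19.4, 336 and 1548 on the right. It was 0.00 in replicates 1 and 2 and -0.50 in replicates 3 and 4, and with side by set in the fit its mean was called (adjusted p = 0.00936).

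Regional genes of the brain were read less evenly. Of the forebrain transcription factors 4 of 8 were even, of proneural and Notch genes 5 of 8, of neuroepithelial genes 3 of 8 and of midbrain and hindbrain genes 0 of 4. Pax6, a transcription factor of forebrain and eye, was 0.44 higher on the left (interval 0.15 to 0.73, adjusted p = 0.414), at 219, 644 and 929 on the left and 160, 358 and 1085 on the right. The difference was 0.04 in replicates 1 and 2 and 0.83 in replicates 3 and 4, the right sides of the latter all being at 268 or less. En2, of midbrain and anterior hindbrain, likewise gave 0.44, from -0.33 and 1.2, and Vim, the intermediate filament of radial glia, 0.37, from -0.27 and 1.02. None of these means passed the test over all embryos. With side by set in the fit all 3 were called, with adjusted p-values of 0.00282 for Pax6, 0.0104 for En2 and 8.76e-05 for Vim. These p-values leave out the spread between sets. They do not show a left-right difference that holds over sets, and En2 and Vim had opposite signs in the sets.

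Some tissues differed widely between the sides of single embryos. Of the 5 heart muscle genes above a signal of 100 none was even, the median difference was 0.26 and the median half-width 0.32. All 5 were higher on the left on the mean, by 0.13 to 0.37. The list stood at 1.859 on the left side of E8.5 replicate 3, at 0.627 in E8.5 replicate 1, at 0.558 in E12.5 replicate 3 and at -0.336 in E12.5 replicate 4. Myl4, an atrial myosin light chain, ran from 27.6 through 200 to 3190 on the left and from 30 through 174 to 2040 on the right, a difference of 0.27 (adjusted p = 0.66), and Actc1, the cardiac actin, gave 0.37. Without E8.5 replicate 3 they gave 0.13 and 0.22. Whether heart tissue was carried into single samples was not tested.

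Lens genes gave 2 of 6 even and a median of -0.18. The list was lower on the left in 3 of the 4 embryos of E12.5, by -0.611, -0.883 and -0.348 in replicates 2 to 4, and was 0.087 in replicate 1. Mip, the water channel of lens fibres, gave -0.08, -0.60, -1.08 and -0.52 in the same order of replicates 1 to 4 and -0.25 over all embryos (adjusted p = 0.461). These are the stage and the embryos, replicates 2 and 3, in which Shh and Foxa1 were also lower on the left. Red cell genes were even in 7 of 8 on the mean, with none even in both sets, and differed most at E8.5, at 0.608 in replicate 2 and -0.541 in replicate 3. The alpha-type globins Hba-a1, of the adult, and Hba-x, of the embryo, gave 0.97 and 0.91 in the first of these embryos and -0.94 and -0.54 in the second, and 0.02 each over all 12. No macrophage gene was above a signal of 100.

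Stage by stage, no probe passed the test at any of the 3 stages (0% each). The smallest adjusted p was 1 at E8.5, 0.465 at E10.5 and 0.129 at E12.5. At an unadjusted p under 0.05 there were 1566 probes at E8.5 (3.36%, with 1.67% left and 1.69% right), 2107 at E10.5 (4.52%, with 2.33% and 2.19%) and 1721 at E12.5 (3.69%, with 1.8% and 1.89%). A value of B above 1 was reached by 0 probes at E8.5 and by 1 probe (0.00214%) at each later stage. At E10.5 it was Tomm6, with 0.35, 0.33, 0.57 and 0.47 in replicates 1 to 4, a mean of 0.43 ± 0.06 (SE). At E12.5 it was Defb11, a defensin, with -0.54, -0.49, -0.23 and -0.58 (mean -0.46 ± 0.05), on a probe with a mean signal of only 1.07. Without E12.5 replicate 3 Defb11 passed the test at that stage, at -0.54 with an adjusted p of 0.0118.

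No change of the side difference with stage was called. The interaction of side and stage called 0 probes (smallest adjusted p = 1), with 919 (1.97%) at an unadjusted p under 0.05. Hbb-bs, a beta-globin and among the 4 genes of smallest p for this interaction, was lower on the left in all 4 embryos of E8.5 (-0.48, -0.21, -0.15 and -0.18) and higher in all 4 of E10.5 (0.34, 0.41, 0.32 and 0.27). At E12.5 the values were 0.15, -0.20, -0.29 and 0.00. Lamp5, a membrane protein of neurons, gave means of 0.01 at E8.5, -0.18 at E10.5 and -0.64 at E12.5, where the 4 embryos were at -0.68, -0.31, -1.0 and -0.57. It was near background until the late stage, its signal ranging from -12 to 816 on the left and from -9.33 to 1511 on the right.

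The mean over embryos joined opposite differences in the sets. The difference between sides differed between sets for 10873 probes (23.3%), of which 6326 (13.6%) had the larger left minus right in replicates 1 and 2 and 4547 (9.75%) in replicates 3 and 4. Within replicates 1 and 2 alone 3893 probes (8.35%) were called, 1658 higher on the left (3.55%) and 2235 on the right (4.79%). Within replicates 3 and 4 alone 10121 (21.7%) were called, 4354 on the left (9.33%) and 5767 on the right (12.4%). Of 2905 probes called in both sets (6.23%) 2873 lay on opposite sides (6.16%) and 32 on the same side (0.0686%), 26 left (0.0557%) and 6 right (0.0129%). Of those on opposite sides 1777 (3.81% of all probes) were higher on the right in replicates 1 and 2 and on the left in replicates 3 and 4. Median scaling lowered the count of probes differing between sets to 5169. Whether calls within a set go with the side or with the BeadChip was not tested.

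The sets differed mainly on the right. Set against set, the right sides differed at 13164 probes (28.2%) and the left sides at 0 (0%, smallest adjusted p = 0.0586, with 4817 at an unadjusted p under 0.05), and the median size of the difference between sets was 0.38 on the right and 0.09 on the left. The left-minus-right profiles of 2 embryos of 1 set correlated at 0.39 to 0.90 over probes (median 0.70) and those of embryos of different sets at -0.72 to -0.24 (median -0.59). The points of these correlations are probes of the same arrays and not replicates. The spread of left minus right over probes (SD) was 0.226 to 0.314 in an embryo of replicates 1 and 2 and 0.386 to 0.52 in one of replicates 3 and 4. With the sets in the fit, the median half-width of an interval fell from 0.14 to 0.08.

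Cct8, a subunit of the chaperonin that folds actin and tubulin, had the largest difference among the 8 genes chosen for the smallest p of side by set. Its left sides were at 427, 779 and 1133, its right sides at 977, 1877 and 2263 in replicates 1 and 2 and at 95.3, 166 and 243 in replicates 3 and 4. The 2 groups of right sides thus lay apart with the left sides between them. Left minus right was -0.99 in the first set and 1.56 in the second (adjusted p of the difference 3.24e-12). Lamp2, a membrane protein of the lysosome, was at 252, 382 and 464 on the left and at 485, 710 and 945, or 6.8, 28.8 and 37, on the right. Slc5a6, a vitamin transporter, gave -0.46 and 1.04, and Aftph, of vesicle traffic at the Golgi, -0.76 and 1.17. In the reverse direction Ube2f, a NEDD8-conjugating enzyme, gave 0.09 and -0.69, and Faap24, of the Fanconi anaemia complex, 0.09 and -0.49. Abhd8 gave 0.22 and -0.39 and Zfp64 also lay in this direction.

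Ribosomal protein genes differed between the sets mostly in 1 direction. Of 66 above a signal of 100, 53 differed between sets, against 69% of all genes. Of the 53, 44 had the larger difference in replicates 3 and 4, against 4547 of the 10873 differing probes of any signal. The median left minus right of the 66 was -0.14 in replicates 1 and 2 and 0.46 in replicates 3 and 4. Over all genes it was 0.06 and -0.11. In every embryo of the first set the list's median was below 0, from -0.266 to -0.128, and in every embryo of the second above it, from 0.277 to 0.524. Rpl26 had right sides at 3807, 5190 and 5754 in replicates 1 and 2 and at 643, 908 and 1200 in replicates 3 and 4, with left sides at 2603, 3371 and 4183. Only 27 of the 66 were even on the mean, and 15 in both sets.

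Chaperonin and heat shock genes ran the same way, with medians of -0.17 and 0.56. Of 13 above a signal of 100, 9 differed between sets (69.2%), near the 69% of all genes above that signal. All 9 had the larger difference in replicates 3 and 4, against 4547 of the 10873 differing probes of any signal. Tcp1, a further chaperonin subunit, was at 1165, 1393 and 1902 on the left and at 1752, 2707 and 3196, or 264, 343 and 545, on the right. Hspa8, the constitutive Hsc70 chaperone, moved less, with right sides at 16917, 18364 and 20948 or at 8414, 9643 and 11881. H2az1, a histone variant, had right sides at 3201, 4592 and 5628 or at 404, 683 and 849 and left sides at 1993, 2904 and 3807. Most histone genes that differed ran the other way. Of 42 histone genes 23 differed between sets (54.8%, against 69% of all genes). Of these 17 had the larger difference in replicates 1 and 2 and 6 in replicates 3 and 4. Other large classes were mixed. Of 62 mitochondrial ribosomal proteins 49 differed between sets (79%), 25 of them with the larger difference in replicates 3 and 4. Of 53 oxidative phosphorylation genes 36 differed (67.9%), 13 of them in that direction. Of 12 neuronal genes 7 differed (58.3%), with the larger difference in replicates 1 and 2. The list's medians, 0.08 and -0.12, were close to those of all genes. Under median scaling the median of probes above a signal of 100 moved to -0.18 in replicates 1 and 2 and to 0 in replicates 3 and 4. Relative to that shift ribosomal proteins were at -0.22 and 0.49 and chaperones at -0.26 and 0.60.

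**Figure D5:**
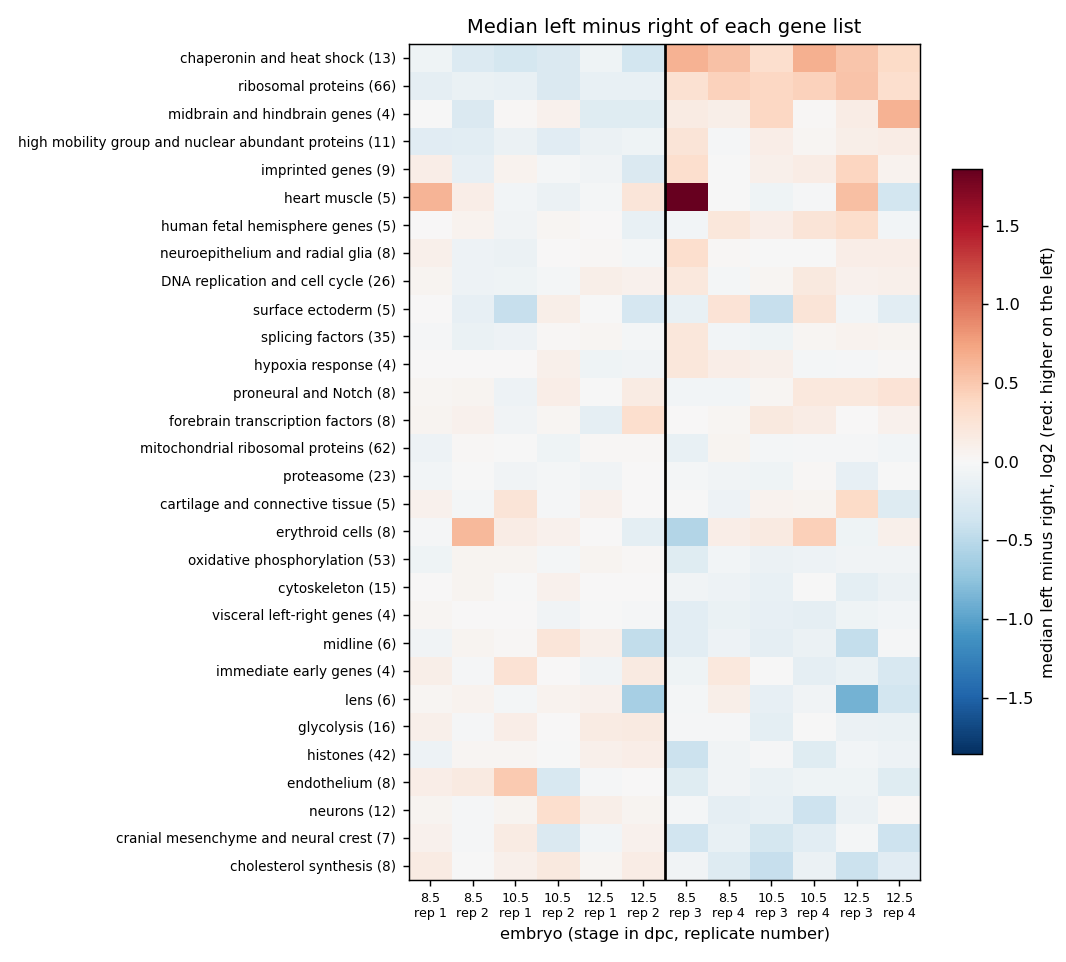
Median left minus right on the log2 scale of each gene list (rows, the 30 lists with at least 4 members above a signal of 100) in each embryo (columns, ordered by set and stage), as colour. Ribosomal proteins run from -0.266 to -0.128 in replicates 1 and 2 and from 0.277 to 0.524 in replicates 3 and 4, and heart muscle reaches 1.859 in E8.5 replicate 3.

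The genes that the study itself picked as uneven number 35, of which 29 were matched. Each was read on the brightest probe matched to it, which was not always the probe the study picked. Rps6 and Hmgb1, higher on the right in the study, gave 0.12 and 0.30 on these probes. On dimmer probes they gave -0.25 and -0.23. The counts below are for the brightest probes. Of these, 24 were higher on the left and 5 on the right, 27 had the same sign in both sets and 17 were called on the same side in both, against 0.0686% of all probes called in both on 1 side. None (0) passed the adjusted threshold over all embryos, and 17 of the 29 were even, against 75.1% of probes. As they were chosen on these arrays, neither their direction nor these counts are independent evidence.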

How the data were processed

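Left and right sides of the heads of 12 embryos were hybridized to Illumina mouse WG-6 v1.1 arrays. The deposited values are linear probe intensities with the background subtracted by the authors, not yet quantile normalized. The methods name BeadStudio and the submitters' processing notes GenomeStudio for this step, and the annotation build is not given in the sources used here. A further deposited table with 72 columns of per-sample values, from 4 BeadChips of 6 arrays, was not used, because its columns could not be tied to samples.

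A constant of 119.5 was added (the lowest value, -103.5, became 16), followed by quantile normalization and log2. Signals are given with the constant taken off again. GEO's platform annotation gave 32794 probes 1 symbol, 55 several and 13794 none, for 19406 symbols, none of which changed through the current RefSeq gene table. A gene was read on its brightest probe, and called even where the interval lay within log2 of 1.25 on the scale with the constant. Fits used limma with side as the term and embryo as a fixed block, which holds the stage (the methods name hemisphere, mouse and stage as factors), eBayes with a prior proportion of 0.01, and Benjamini-Hochberg adjustment over all 46643 probes (threshold 0.05). The residual degrees of freedom were 11 and the prior ones 2.78. Single values were also tested by exact sign flips over embryos. The code was tested on simulated data. For the fit over all embryos these held no difference between sets, so its intervals were not tested with one.

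The named genes are the 8 of smallest p on each side, the members of the left-right, midline and human fetal lists, for each other list its 2 brightest members and the 1 with the largest difference above a signal of 100, the 6 of smallest standard error above a signal of 1000, the 4 of smallest p in each direction for side by set and 4 for side by stage, and genes the study picked. Members, lists and the split into sets were chosen with earlier results of these data known.

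The embryo number pairs the sides as the titles give it, from 1 head each. The sides of an embryo deviated together from the means of their stage and side in 12 of 12 embryos (r of 0.154 to 0.592). Each was closest to its own partner in 9 of 12. The sets were not removed from these deviations, so they may hold set as well as embryo. With embryo as a random block the consensus correlation of the sides was 0.0893. The embryos are separate animals. Alternatives were other scalings, a larger or no constant, filters on dim probes, the block as random or absent, single sets, and each embryo left out.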

Additional observations from a re-analysis of the deposited data

Results flagged for a closer look

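The difference between sides differed between replicates 1 and 2 and replicates 3 and 4 for 10873 probes, by limma's test of side by set. Among the 8 genes of smallest p, left minus right in replicates 1 and 2 less that in replicates 3 and 4 was -2.55 for Cct8, -2.50 for Lamp2, -1.93 for Aftph and -1.50 for Slc5a6. It was 0.77 for Ube2f, 0.63 for Zfp64, 0.61 for Abhd8 and 0.58 for Faap24.

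In 5 of 93 groups of 4 values the highest or lowest lay far from the others by Dixon's criterion, about as many as a test at the 5% level gives by chance. Left minus right of H3f3a was -0.67 in 1 embryo of E12.5 and -0.24 in each of the others. Bicc1 was at -0.45 in 1 embryo of E12.5 and between -0.04 and -0.01 in the rest, and Gdf1 at -0.16 in 1 embryo of E10.5 and between -0.04 and -0.02 in the rest. Fbxo3 was at -0.07 in 1 embryo of E8.5, where the others were at -0.18 to -0.16. The mean deposited intensity of the left side of E10.5 replicate 4 was 228.5, against 186.6 to 192.5 in the other left sides of that stage.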

How the results depend on the processing

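The count of 0 probes at an adjusted p below 0.05 over all stages held under median scaling, both other constants, the filter on dim probes, and with a random or no replicate block. It became 2661 with side by set in the fit, 4401 in replicates 1 and 2 only and 8678 in replicates 3 and 4 only, and 0 to 2 with 1 embryo left out, the 2 being without E8.5 replicate 4. The 47 probes with B above 1 became 15 under median scaling, 13 with dim probes left out, 23 with no replicate block and 33 with a random one, 1111 with side by set in the fit, 1729 in replicates 1 and 2 only, 3459 in replicates 3 and 4 only and 28 to 58 with 1 embryo left out. The median half-width of 0.14 became 0.22 with no constant and 0.08 with side by set in the fit. The 75.1% of even probes became 47.1% with no constant, 40.5% in replicates 3 and 4 only, 16.6% with a margin of log2 of 1.1 and 37.2% where each set had to be even, an alternative added after the data were seen. At E12.5 leaving out 1 embryo gave 0 to 1 probes, the 1 being without replicate 3. Median scaling lowered the probes that differed between sets from 10873 to 5169 and those called within replicates 3 and 4 from 10121 to 3751, and no constant lowered those called within replicates 1 and 2 from 3893 to 2107.

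The replicate block changed the call of none of the 172 named probes. With side by set in the fit 68 of them were called with the sign they had over all embryos, in replicates 1 and 2 only 31, and in replicates 3 and 4 only 94. In replicates 1 and 2 only, 26 were called with the opposite sign: Kif3a -0.26, Otx1 0.24, En2 -0.33, Vim -0.27, Hey1 -0.31, Rpl26 -0.60, Mrpl50 -0.46, Cox4i1 0.17, Atp5pb -0.32, Pgk1 -0.52, Psma3 -0.65, Hspa8 -0.16, Tcp1 -0.77, Hnrnpm -0.32, Bub1b -0.37, H2az1 -0.64, Anp32e -0.48, Nsdhl -0.36, Ndn -0.29, Zfp64 0.13, Abhd8 0.22, Cct8 -0.99, Slc5a6 -0.46, Aftph -0.76, Lamp2 -0.79 and Hmgb1 -0.26. In replicates 3 and 4 only, Arpc2 at 0.38 and Uty at -0.15 were. The causes were not tested. Probes near background, such as those of Nodal and its antagonists, limit what can be seen of genes with little RNA.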
